A study of Homo sapiens with 9 samples.

Results

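The annexins described here were the 10 genes *ANXA1*, *ANXA2*, *ANXA3*, *ANXA4*, *ANXA5*, *ANXA6*, *ANXA7*, *ANXA8*, *ANXA10* and *ANXA11*, chosen by gene symbol from the 60708 genes counted in each RNA-sequencing library. All 10 were matched to exactly 1 gene identifier. These members and the gene lists below were chosen with earlier results of these data known. Their counts, set beside shares over all genes, are therefore descriptions. The family has 2 further genes, *ANXA9* and *ANXA13*, and 5 related loci, and these 7 were kept apart as a comparison. The data were 9 libraries of total RNA depleted of ribosomal RNA, from untreated cells labelled as MDA-MB-231, a long-used human line of triple-negative, basal breast cancer. Of these, 3 were labelled WT, and 3 each came from the clones CS16 and CS19, both labelled *SNAI1*-KO. Each clone was grown from a single cell after CRISPR/Cas9 plasmids against *SNAI1*, a repair-template plasmid and puromycin selection, steps that the unedited WT cells were not described as having shared. *SNAI1* encodes a zinc finger repressor of epithelial genes, and the comparison of WT with *SNAI1*-KO asks which transcripts differ when it is targeted. The 6 *SNAI1*-KO libraries stand for 2 clones, so genotype and clone cannot be told apart. Nothing stated whether the libraries of a group came from separate cultures, and the p-values below measure only the spread between libraries.

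Annexins are proteins that bind acidic phospholipids of the inner plasma membrane when calcium rises, through a conserved core of annexin repeats, and that differ mainly in their N-terminal tails. They gather at sites of membrane damage, join membranes to actin and to S100 proteins, and take part in vesicle traffic. In breast epithelium and breast cancer, ANXA1 and ANXA2 are the members best known, the first as a regulator of phospholipase A2 and a ligand of formyl peptide receptors, the second as a partner of S100A10 that brings plasminogen to the cell surface.

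The stretches of sequence before the transcript starts are given first. In them, *ANXA1* and *ANXA10* lacked CG dinucleotides, the sites of DNA methylation. Every start of the other matched members had them, those of *ANXA2* and *ANXA3* included. *ANXA1*, *ANXA2*, *ANXA3* and *ANXA10* were all among the 5 annexins much lower in the clones. Methylation was not measured, and the part of these sequences in the levels was not tested. The share of all promoters without a CG dinucleotide was not counted. RefSeq starts on GRCh38.p14 were matched for 9 of the 10 annexins, with 13 starts, and *ANXA8* was not among them. In the 250 bases before the start, *ANXA1* and *ANXA10* held no CG dinucleotide, and their GC contents were 38.4% and 31.2%. The median GC content over all 35116 promoters was 58.0%. *ANXA3* had 18 CG dinucleotides in that window, *ANXA2* had 28, *ANXA5* had 31 and *ANXA7* had 20. The sequences below run 5′ to 3′ toward the start, leave out bases that lie in annotated exons, and show each CG dinucleotide in capitals.
*ANXA1* (chr9:73151715-73151864, + strand): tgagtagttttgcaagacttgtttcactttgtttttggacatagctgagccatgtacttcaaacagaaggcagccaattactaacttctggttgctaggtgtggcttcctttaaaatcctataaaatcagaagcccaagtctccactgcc
*ANXA10* (chr4:168092387-168092536, + strand): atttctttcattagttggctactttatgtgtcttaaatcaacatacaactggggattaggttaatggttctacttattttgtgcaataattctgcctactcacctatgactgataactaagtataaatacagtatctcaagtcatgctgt
*ANXA3* (chr4:78551597-78551746, + strand): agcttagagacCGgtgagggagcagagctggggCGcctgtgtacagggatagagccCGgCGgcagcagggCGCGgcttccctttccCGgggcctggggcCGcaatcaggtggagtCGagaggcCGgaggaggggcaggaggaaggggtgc
*ANXA2* (chr15:60398158-60398236, - strand): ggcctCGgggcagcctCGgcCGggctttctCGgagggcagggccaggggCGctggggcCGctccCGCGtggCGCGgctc
*ANXA5* (chr4:121696996-121697145, - strand): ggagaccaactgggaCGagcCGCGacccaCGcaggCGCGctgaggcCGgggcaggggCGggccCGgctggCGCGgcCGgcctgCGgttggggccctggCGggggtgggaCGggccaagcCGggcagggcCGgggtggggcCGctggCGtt
*ANXA7* (chr10:73414077-73414226, - strand): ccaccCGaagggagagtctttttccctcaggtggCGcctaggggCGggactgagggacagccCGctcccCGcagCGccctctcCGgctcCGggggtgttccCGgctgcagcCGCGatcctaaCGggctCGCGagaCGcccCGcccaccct
The stretches of *ANXA1*, *ANXA10*, *ANXA3*, *ANXA5* and *ANXA7* are 150 bases long and that of *ANXA2*, most of whose window is exonic in other transcripts, is 79 bases long. *ANXA5* and *ANXA7*, which were not among the 5, show 19 and 16 CG dinucleotides in capitals, against 10 for *ANXA3* in the same length and 10 for *ANXA2* in its shorter one. The other annexins not among the 5 varied by start. In the 250 bases, *ANXA4* had 36 and 21 CG dinucleotides, *ANXA6* had 10 and 19, and *ANXA11* had 5, 22 and 9. The number of CG dinucleotides thus did not separate the 5 from the rest.

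Short motifs were searched on both strands of the same 250 bases. CAGGTG, the E-box that Snail proteins are known to bind, was found once each for *ANXA3*, *ANXA4*, *ANXA6*, *ANXA7* and *ANXA11*, and 17.5% of all promoters held it. TGANTCA, the motif of AP-1 factors, was found once, for *ANXA2*, and 6.57% of all promoters held it. GGAATG, the motif of TEAD factors, was found in none of the 13 annexin windows and in 11.9% of all promoters. The matches of 2 annexins that were much lower in the clones are shown in capitals within their flanking bases.
*ANXA2* (chr15:60398096-60398124, - strand): gcgggccggggTGAGTCAcccctgacttg
*ANXA3* (chr4:78551691-78551718, + strand): ggggccgcaatCAGGTGgagtcgagagg
The match of *ANXA2* lies 127 to 121 bases before the start and that of *ANXA3* lies 68 to 63 bases before it. Such a match is a description of the letters and not a measured binding site. *ANXA1* and *ANXA10* held none of the 3 motifs in this window.

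Before the annexins, the labels were compared with the counts. The libraries held 19527195 to 28627777 read pairs on genes. *SNAI1* itself had 16, 38 and 21 counts in the WT libraries, 26, 40 and 49 in CS16, and 57, 94 and 94 in CS19, so it was not lower in the libraries labelled *SNAI1*-KO. By the edgeR test described below, *SNAI1* was higher in CS19 than in WT (log2 fold change 1.32, adjusted p below 0.05). It did not pass that test in CS16 (0.39) or over both clones (0.89). A count over the whole gene does not show a deletion within it. *CDKN2A*, *CDKN2B* and *MTAP*, neighbours on 9p21 in a stretch known to be deleted in MDA-MB-231, had 0 counts in every library labelled WT, while *CDKN2A* had 1106 to 1575 counts in the clone libraries. *CD44*, a surface marker of basal breast cells, had 11142 to 13853 counts in the WT libraries and 2 in the 6 clone libraries together. In these genes the libraries labelled CS16 and CS19 differed from those labelled WT in presence and not only in level. Whether the clones and the WT cells were of the same line was not tested, and a difference between lines cannot be told apart from genotype and clone in any comparison with WT. Groups are named by their labels throughout. WT-2 stood apart from the other WT libraries, since its counts differed from theirs by a chi-square of 120 (WT-1) and 145 (WT-3) per degree of freedom, where other replicate pairs gave 3.53 to 11.8.

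*ANXA1*, *ANXA2*, *ANXA3*, *ANXA8* and *ANXA10* were much lower in both clones than in WT, and no annexin rose. Levels are given as CPM (counts scaled to a common library total) after TMM scaling, which corrects for library size and composition. A difference was called when edgeR's quasi-likelihood test gave a Benjamini-Hochberg adjusted p, over all genes tested, below 0.05 and the log2 fold change was 2 or more in size, and a gene is said to have fallen or risen when the adjusted p alone was below 0.05. In *SNAI1*-KO against WT, 5 of the 10 annexins were called lower, and 14.3% of the 19631 genes tested were called lower. In either direction 26.9% of genes were called. By the adjusted p alone, 9 of 10 annexins fell, where 63.7% of all genes passed, 32.6% lower and 31.1% higher. None of the 10 rose by edgeR, by DESeq2 or at an unadjusted p below 0.05. The median log2 fold change of the annexins was -2.77, and it was -0.0040 over all genes tested. *ANXA8* and *ANXA10* passed the filter on low counts only through the WT libraries. In bulk RNA, fewer cells with a transcript and less of it per cell cannot be told apart.

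*ANXA1* (ENSG00000135046.14, chr9:73151865-73170393, + strand) encodes the glucocorticoid-regulated, formyl peptide receptor-binding annexin. Its level was 707, 347 and 836 CPM in WT-1, WT-2 and WT-3. It was 22.9, 28.1 and 23.3 CPM in the CS16 libraries and 12.02, 14.4 and 16.4 CPM in the CS19 libraries. The groups did not overlap, and the 3 values of each clone lay closer together than the WT values, among which WT-2 was low. The log2 fold change was -5.01 (SE 0.32, n = 6 against 3, edgeR adjusted p = 8.99e-08) over both clones. It was -4.64 (SE 0.37) for CS16 and -5.42 (SE 0.39) for CS19.

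*ANXA2* (ENSG00000182718.18, chr15:60347134-60402883, − strand) encodes the partner of S100A10 and was the annexin with the most counts in WT. Its level was 2045, 1531 and 2432 CPM in the WT libraries. It was 163.5, 162.8 and 170.0 CPM in CS16 and 130.0, 150.4 and 149.2 CPM in CS19. The groups did not overlap, and the levels in CS16 and CS19 lay near each other, far under the lowest WT value. The log2 fold change was -3.70 (SE 0.16, n = 6 against 3, edgeR adjusted p = 5.33e-09), with -3.56 (SE 0.23) for CS16 and -3.76 (SE 0.25) for CS19. *ANXA2* took 0.136% to 0.216% of all counts in the WT libraries.

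*ANXA3* (ENSG00000138772.13, chr4:78551747-78610451, + strand), a member first described through its inhibition of phospholipase A2 and coagulation, had the largest log2 fold change between the clones among the 8 annexins tested there. Its level was 217, 157 and 246 CPM in the WT libraries. It was 5.55, 6.40 and 6.26 CPM in CS16 and 13.1, 15.2 and 15.3 CPM in CS19. Both clones lay below WT without overlap, and CS16 lay below CS19 without overlap. The log2 fold change was -4.32 (SE 0.35, n = 6 against 3, edgeR adjusted p = 6.70e-07), with -5.05 (SE 0.24) for CS16 and -3.79 (SE 0.24) for CS19.

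*ANXA8* (ENSG00000265190.7, chr10:47460162-47484158, − strand), an annexin of stratified epithelia and of basal-like breast cells, was nearly absent from the clones. It had 410, 426 and 473 counts in WT, 1, 0 and 2 in CS16, and 0, 0 and 1 in CS19. In CPM, the WT libraries held 20.3, 24.4 and 24.3. With 4 counts in 6 libraries, the ratio of WT to *SNAI1*-KO was 812, with a 95% counting interval of 316 to 2986. The edgeR adjusted p was 3.47e-09 (n = 6 against 3). Its near-identical copy *ANXA8L1* had 163, 153 and 180 counts in WT and 0 in every clone library, which is at least 67.2-fold lower at a floor of 3 counts per library. How the pairs were shared between these copies could not be seen from the counts, and with both summed the log2 fold change was -9.87 (edgeR adjusted p = 1.95e-09).

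*ANXA10* (ENSG00000109511.12, chr4:168092537-168187736, + strand), an annexin best known from gastric epithelium, was the lowest member in WT. It had 52, 34 and 79 counts in WT, or 2.57, 1.95 and 4.06 CPM, and 0 counts in all 6 clone libraries. At the same floor it was at least 22.1-fold lower in *SNAI1*-KO (n = 6 against 3, edgeR adjusted p = 2.82e-05), at least 20.9-fold in CS16 and at least 23.5-fold in CS19. Counting intervals and floors cover counting error only.

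The other 5 annexins were not called. *ANXA4* (ENSG00000196975.16, chr2:69644425-69827112, + strand), an annexin of epithelial apical membranes, had 46.5, 41.4 and 45.1 CPM in WT, 11.05, 12.1 and 12.9 CPM in CS16, and 12.7, 13.1 and 12.03 CPM in CS19. Both clones lay at a like level, below every WT library. The log2 fold change was -1.85 (SE 0.13, n = 6 against 3, edgeR adjusted p = 1.82e-07), just under the size needed for a call.

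*ANXA5* (ENSG00000164111.15, chr4:121667946-121696995, − strand), the phosphatidylserine-binding annexin used as a probe of dying cells, had 782, 457 and 913 CPM in WT. It had 364, 347 and 364 CPM in CS16 and 310.3, 366 and 344 CPM in CS19. All clone values lay below the WT values, with WT-2 the nearest to them. *ANXA5* fell by 1.04 on the log2 scale (SE 0.19, n = 6 against 3, edgeR adjusted p = 0.000477).

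*ANXA11* (ENSG00000122359.18, chr10:80150889-80205572, − strand), which tethers RNA granules to lysosomes, had 177, 297 and 193 CPM in WT. It had 95.9, 83.0 and 98.2 CPM in CS16 and 94.8, 112.2 and 93.5 CPM in CS19. The groups did not overlap, and here WT-2 was the highest WT library. *ANXA11* fell by 1.21 on the log2 scale (SE 0.17, n = 6 against 3, edgeR adjusted p = 6.65e-05).

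*ANXA6* (ENSG00000197043.14, chr5:151100706-151157785, − strand), the annexin with a doubled core, had 317, 326 and 361 CPM in WT. It had 255, 249 and 265 CPM in CS16 and 142, 161 and 141 CPM in CS19. The 3 groups did not overlap, with CS16 between WT and CS19. *ANXA6* fell by 0.73 over both clones (SE 0.23, n = 6 against 3, edgeR adjusted p = 0.0159). In CS16 alone its log2 fold change was -0.35 (SE 0.15, adjusted p = 0.0860 by edgeR), and in CS19 it was -1.14 (SE 0.17, adjusted p = 0.000859 by edgeR).

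*ANXA7* (ENSG00000138279.16, chr10:73375101-73414076, − strand), also called synexin and linked to granule fusion, was the member that did not pass the test. It had 147, 65.7 and 192 CPM in WT, 91.0, 122 and 92.45 CPM in CS16, and 117.7, 116.6 and 127 CPM in CS19. The clone values lay within the WT range, whose low end was WT-2. The log2 fold change was -0.28 (SE 0.27, n = 6 against 3, edgeR adjusted p = 0.374), with a 95% interval of -0.87 to 0.30.

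Within each clone, the same 5 annexins were called. In CS16 against WT, *ANXA1*, *ANXA2*, *ANXA3*, *ANXA8* and *ANXA10* were called lower, as were 15.3% of all genes tested, and 8 of 10 annexins fell where 55.6% of all genes passed and 28.6% fell. In CS19 against WT the same 5 were called lower, as were 14.4% of all genes tested, and 9 of 10 annexins fell where 52.9% of all genes passed and 26.6% fell. These comparisons share their WT libraries. *ANXA6* and *ANXA7* did not pass in CS16, and *ANXA7* did not pass in CS19. *ANXA5* had log2 fold changes of -0.97 (SE 0.26, edgeR adjusted p = 0.0160) in CS16 and -1.04 (SE 0.27, edgeR adjusted p = 0.0142) in CS19, and it no longer passed in either clone when any 1 library of that clone was left out, nor in CS16 without WT-1 or WT-3 (adjusted p of 0.0508 to 0.0753 for CS16 and 0.0516 to 0.0713 for CS19).

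**Figure D1:**
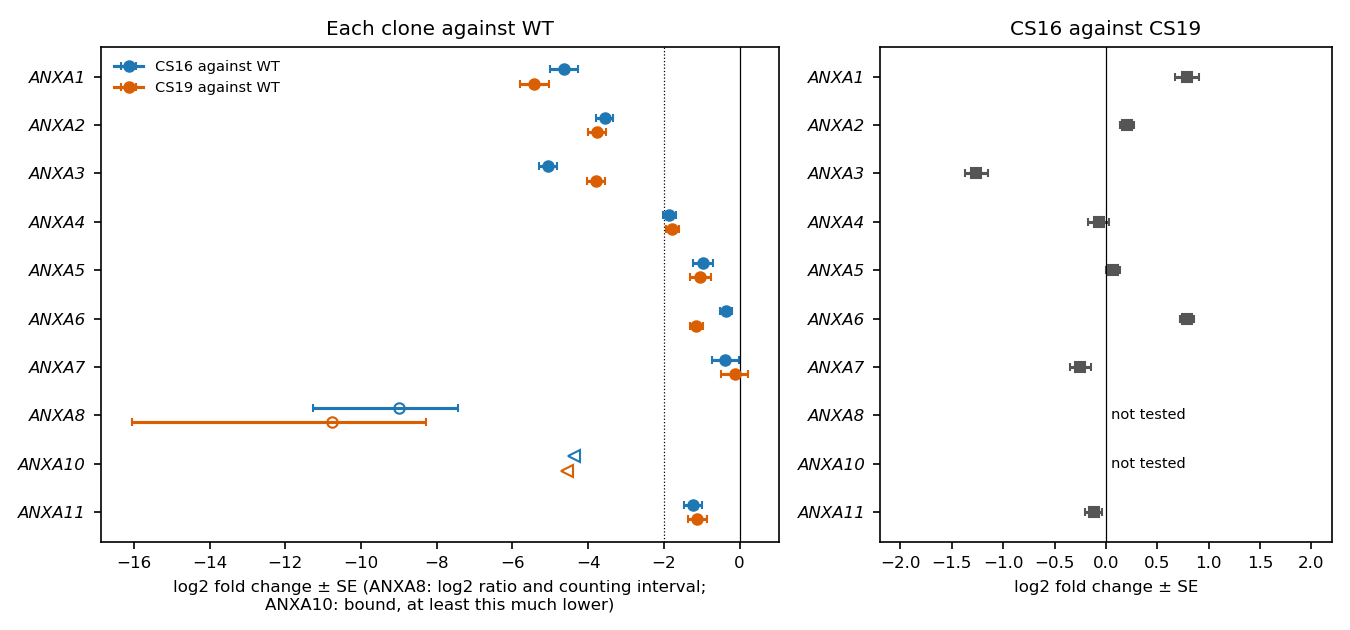
Left, log2 fold change with SE of each annexin in CS16 (blue) and CS19 (orange) against WT, with a dotted line at the size needed for a call. *ANXA8* is drawn as a log2 ratio with its counting interval and *ANXA10* as a bound. Right, CS16 against CS19, where *ANXA3* stands at -1.26 and *ANXA1* and *ANXA6* at 0.78 and 0.79.

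The clones were then compared with each other, in a fit that needs no WT library. None of the 8 annexins tested was called (edgeR), as by DESeq2, and 1.13% of the 17538 genes tested were called, 0.496% as lower in CS16. *ANXA8* and *ANXA10* were too low in both clones to be tested. By the adjusted p alone 4 of 8 annexins differed, 3 higher in CS16 and 1 lower, where 27.4% of all genes differed, 14.7% higher and 12.7% lower. At an unadjusted p below 0.05 it was 5 of 8, and the share of all genes at that threshold was not counted. *ANXA3* was lower in CS16 than in CS19, with a log2 fold change of -1.26 (SE 0.11, n = 3 against 3, edgeR adjusted p = 3.38e-06). *ANXA6* was higher in CS16, with a log2 fold change of 0.79 (SE 0.07, n = 3 against 3, edgeR adjusted p = 2.19e-06). *ANXA1* was also higher in CS16, by 0.78 (SE 0.12, n = 3 against 3, edgeR adjusted p = 0.000234). *ANXA1* and *ANXA3*, both far below WT in either clone, thus differed between the clones in opposite directions. *ANXA2* was 0.20 higher (SE 0.07, edgeR adjusted p = 0.0374). In a fit that also took its spread from the WT libraries, *ANXA1* (adjusted p = 0.221) and *ANXA2* (adjusted p = 0.739) no longer passed with edgeR, and *ANXA3* and *ANXA6* did.

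For *ANXA4*, *ANXA5*, *ANXA7* and *ANXA11* no difference between the clones passed the test, and the intervals give its possible size. The 95% interval of the log2 fold change of CS16 against CS19 was -0.29 to 0.15 for *ANXA4*, -0.08 to 0.22 for *ANXA5*, -0.46 to -0.04 for *ANXA7* (edgeR adjusted p = 0.0790) and -0.30 to 0.06 for *ANXA11*.

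WT-2 moved several of these values. Among the annexins, its log2 level against the mean of WT-1 and WT-3 was lowest for *ANXA7* at -1.35, then *ANXA1* at -1.15 and *ANXA5* at -0.89, and it was highest for *ANXA11* at 0.68. The 3 members with transcripts of over 50% GC, *ANXA6*, *ANXA8* and *ANXA11*, stood at -0.06, 0.13 and 0.68, and the other 7 stood between -1.35 and -0.15. Across all genes tested with a known GC content, 19589 genes that are not independent, this deviation had a Spearman correlation of 0.668 with GC, where the difference of WT-1 and WT-3 had one of -0.118. Without WT-2, all 10 annexins fell in *SNAI1*-KO, in CS16 and in CS19, and the share of all genes that fell without it was not counted. *ANXA7* then had a log2 fold change of -0.62 (edgeR adjusted p = 0.00312) in *SNAI1*-KO, and *ANXA6* had one of -0.41 (edgeR adjusted p = 0.00167) in CS16. Without WT-3 in place of it, *ANXA7* stood at 0.080 (edgeR adjusted p = 0.809) and *ANXA6* at -0.65 (edgeR adjusted p = 0.0581) in *SNAI1*-KO, and *ANXA6* stood at -0.29 (edgeR adjusted p = 0.218) in CS16. The part of GC content in these values was not tested.

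The make-up of the annexin pool differed between the groups. The 10 genes together took 0.288% to 0.466% of all counts in the WT libraries and 0.0936% to 0.105% in the clone libraries. To compare genes with each other, counts were divided by length and scaled to TPM, which sums to the same total in every library. The exon length in the files joins the exons of every transcript of a gene and is 11574 bases for *ANXA2* and 11060 for *ANXA4*, where their canonical transcripts have 1554 and 2651 bases, so both lengths were used. By exon length the summed annexin level was 2359 ± 487 TPM in WT, 741 ± 89.4 in CS16 and 658 ± 84.6 in CS19 (SD, n = 3 each). By canonical length, an alternative chosen after the data were seen, it was 5041 ± 898, 943 ± 85.3 and 866 ± 84.3 TPM (SD, n = 3 each).

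*ANXA5* held the largest share of the summed level in the clones by either length. By canonical length, *ANXA2* made up 50.8% ± 2.50 of it in WT, 21.5% ± 0.319 in CS16 and 20.9% ± 0.463 in CS19 (SD, n = 3 each). By exon length these shares of *ANXA2* were 23.4% ± 1.52, 6.01% ± 0.136 and 5.70% ± 0.157 (SD, n = 3 each). By exon length *ANXA5* made up 32.5% ± 2.37 in WT, 51.5% ± 1.70 in CS16 and 53.6% ± 1.07 in CS19 (SD, n = 3 each). *ANXA5* went from 16.9% ± 1.47 in WT to 44.1% ± 1.18 in CS16 and 47.1% ± 0.725 in CS19 by canonical length (SD, n = 3 each). *ANXA1* went from 18.4% ± 3.10 to 2.34% ± 0.260 and 1.47% ± 0.179 by exon length, and from 17.1% ± 3.11 to 3.57% ± 0.426 and 2.31% ± 0.269 by canonical length (SD, n = 3 each). *ANXA6* and *ANXA7*, which did not pass the test in CS16, took 19.7% ± 0.622 and 14.9% ± 2.49 of the summed level there by exon length, against 8.59% ± 2.36 and 6.05% ± 1.49 in WT (SD, n = 3 each). By canonical length their shares were 17.9% ± 0.420 and 8.41% ± 1.47 in CS16 and 4.74% ± 1.22 and 2.07% ± 0.536 in WT (SD, n = 3 each).

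By canonical length the order in WT was *ANXA2* at 2547 ± 342 TPM, then *ANXA1* at 880.1 ± 293 and *ANXA5* at 861 ± 219, then *ANXA3* at 285 ± 41.6 and *ANXA6* at 232 ± 15.5 (SD, n = 3 each). *ANXA1* and *ANXA5* overlapped in their library values, and so did *ANXA3* and *ANXA6*, with *ANXA6* the higher in WT-2 (247 against 239 TPM). *ANXA7* at 107 ± 42.2 and *ANXA11* at 67.2 ± 25.4 TPM overlapped as well (SD, n = 3 each). *ANXA4* at 33.6 ± 3.91, *ANXA8* at 22.8 ± 3.12 and *ANXA10* at 3.86 ± 0.959 TPM were the lowest (SD, n = 3 each). By exon length *ANXA5* came first in WT at 774 ± 208 TPM, with *ANXA2* at 548 ± 82.5 and *ANXA1* at 444 ± 154, and neighbouring members among these 3 overlapped (SD, n = 3 each).

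In the clones the order was led by *ANXA5*. In CS16, by canonical length, *ANXA5* stood at 417 ± 48.5 TPM, *ANXA2* at 202 ± 19.6, *ANXA6* at 169 ± 18.2 and *ANXA7* at 78.5 ± 7.05 (SD, n = 3 each). *ANXA2* and *ANXA6* overlapped there. In CS19, *ANXA5* stood at 409 ± 46.1 TPM, *ANXA2* at 181 ± 16.5, *ANXA6* at 101 ± 13.2 and *ANXA7* at 96.7 ± 2.37, and the last 2 overlapped (SD, n = 3 each). Below them came *ANXA11*, *ANXA1*, *ANXA3* and *ANXA4*, between 8.02 and 33.4 TPM in the clone means. Among 19960 protein-coding genes, *ANXA2* lay by exon length at percentile 98.998 to 99.319 in the WT libraries and at 81.5 to 84.6 in the clone libraries, and by canonical length at 99.8 to 99.9 and at 96.7 to 97.2.

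Of the 7 other annexin loci, 4 were tested in *SNAI1*-KO against WT, all 4 fell and 2 were called lower. The 2 called, *ANXA8L1* and *ANXA2P2*, had 0 to 8 counts in the clone libraries and entered the test through WT, so the counts are a description. *ANXA9*, an annexin whose core has lost calcium binding, had 123, 101 and 109 counts in WT and 39 to 94 in the clones, and fell by 1.11 on the log2 scale (SE 0.23, edgeR adjusted p = 0.00141). *ANXA13*, the intestinal annexin, had 5 counts in the WT libraries together and 0 in the clones, and was not tested. Of the *ANXA2* pseudogenes, *ANXA2P2* had 27, 45 and 47 counts in WT and 0 to 8 in the clones, *ANXA2P1* had at most 4 counts in any library and *ANXA2P3* had none. *ANXA2P2* shares most of its sequence with *ANXA2*, and its counts are uncertain for that reason. *ANXA2R*, a receptor locus that shares exon bases with an antisense gene counted without strand, had log2 fold changes of -2.04 in CS16 (SE 0.59, edgeR adjusted p = 0.0205) and -1.45 in CS19 (SE 0.53, edgeR adjusted p = 0.0504).

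Transcripts of proteins that act with annexins were largely lower as well. Of 11 partners and receptors, 9 were tested, 8 fell and 7 were called lower in *SNAI1*-KO against WT, with a median log2 fold change of -5.29. Among them, *FPR1* and *S100A6* passed the filter on low counts only through the WT libraries, so they could only be found lower. *S100A10*, the partner of ANXA2, had 6390, 4101 and 6781 counts in WT, 1393, 1496 and 1643 in CS16, and 1361, 1537 and 1986 in CS19. *S100A10* thus fell by 2.17 on the log2 scale (SE 0.14, edgeR adjusted p = 8.61e-08), less than *ANXA2*. *S100A11*, the partner of ANXA1, had a log2 fold change of -2.92 (SE 0.20, edgeR adjusted p = 1.96e-07). *S100A6*, another calcium-binding partner, went from 48439 to 112919 counts in the WT libraries to 1 count in the 6 clone libraries together. *AHNAK*, the scaffold bound by ANXA2 and S100A10, fell by 5.29 (SE 0.27, edgeR adjusted p = 1.49e-08).

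The formyl peptide receptors, through which extracellular ANXA1 acts, were at or near the floor in the clones. *FPR1* had 338, 173 and 302 counts in WT and 0 in every clone library, at least 109-fold lower. *FPR2* had 36 counts and *FPR3* had 11 in the WT libraries together, and both had 0 in the clones, too few to be tested. *SRI*, the partner of ANXA7, did not pass the test, with a log2 fold change of 0.40 (SE 0.24, edgeR adjusted p = 0.160), as *ANXA7* itself did not.

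In plasma membrane repair, where annexins form a patch over the wound, 17 of 18 genes were tested, 12 fell, 3 rose, 5 were called lower and 1 was called higher, and the median was -1.14 on the log2 scale. Without WT-2, 14 fell and 3 rose, and the shares of all genes without it were not counted. *MYOF* and *DYSF*, the ferlins that fuse vesicles at the wound, had log2 fold changes of -7.67 (SE 0.17, edgeR adjusted p = 1.19e-10) and -6.53 (SE 0.44, edgeR adjusted p = 1.46e-07). *LGALS3*, a galectin that marks broken membranes, fell by 5.85 (SE 0.27, edgeR adjusted p = 7.77e-09). *SYT7*, a calcium sensor of lysosome fusion, was the gene called higher, with 2 to 5 counts in WT, 79 to 159 in the clones and a log2 fold change of 4.47 (SE 0.38, edgeR adjusted p = 1.02e-06). The components of the ESCRT machinery lay between -1.34 and 1.501 on the log2 scale, from *CHMP3* to *CHMP2B*.

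In plasminogen activation at the cell surface, 7 of 9 genes were tested, 5 fell and all 5 were called lower, 1 rose, and the median log2 fold change was -3.54. *PLAU*, which encodes urokinase, fell by 8.53 (SE 0.21, edgeR adjusted p = 1.61e-10), from 6621 to 8818 counts in WT to 19 to 32 in the clones. *PLAUR*, its receptor, fell by 3.54 (SE 0.14, edgeR adjusted p = 2.23e-09), and *PLAT*, the tissue activator, fell by 3.92 (SE 0.21, edgeR adjusted p = 2.12e-08). *PLGRKT*, a plasminogen receptor, rose with a log2 fold change of 1.11 (SE 0.26, edgeR adjusted p = 0.00254). Plasminogen itself, *PLG*, had 0 counts in every library.

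Phospholipase A2 and prostaglandin genes, the pathway that ANXA1 restrains, did not move together. Of 13 genes, 11 were tested, 4 rose, 2 fell, 1 was called higher, 2 were called lower, and the list's median stood at 0.12 on the log2 scale. *PLA2G4A*, the cytosolic phospholipase A2, rose from 4 to 18 counts in WT to 573 to 975 in the clones, with a log2 fold change of 5.49 (SE 0.33, edgeR adjusted p = 6.33e-08). *PTGES*, the inducible prostaglandin E synthase, fell by 5.19 (SE 0.20, edgeR adjusted p = 2.12e-09), and *PTGS1*, a cyclooxygenase, fell by 5.68 (SE 0.48, edgeR adjusted p = 1.06e-06). *PTGS2*, the inducible cyclooxygenase, had a log2 fold change of -0.19 (SE 0.35, edgeR adjusted p = 0.647).

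Genes that move phosphatidylserine, the lipid annexins bind, fell more often than they rose. Of 11, 9 were tested, 6 fell, 1 rose and 3 were called lower, with a median log2 fold change of -1.07. *ANO6*, the calcium-activated scramblase, fell by 1.07 (SE 0.16, edgeR adjusted p = 0.000106). *ATP8B1*, a flippase, fell by 4.21 (SE 0.19, edgeR adjusted p = 6.66e-09).

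Glucocorticoid response genes, a group that includes known regulators of *ANXA1*, went both ways. Of 8 tested, 4 rose and 3 fell, 3 were called higher, none was called lower, and the median stood at 0.53 on the log2 scale. *TSC22D3* (log2 fold change 2.10, SE 0.16, edgeR adjusted p = 3.91e-07) and *KLF9* (4.11, SE 0.22, edgeR adjusted p = 2.30e-08), both induced by glucocorticoids elsewhere, rose. *NR3C1*, the glucocorticoid receptor, fell by 1.70 (SE 0.22, edgeR adjusted p = 3.35e-05), and *SGK1* fell by 1.93 (SE 0.23, edgeR adjusted p = 1.62e-05). No list above was tested as a set, and against 14.3% of all genes called lower and 32.6% fallen its counts are descriptions. The lists also share genes, so their counts are not separate. *AHNAK*, *DYSF* and *PDCD6* are both among the partners and in membrane repair, and *S100A10* is both among the partners and in plasminogen activation. Some genes of these lists passed the filter on low counts only through WT, as *PTGS1* did, or only through the clones, as *SYT7* did.

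Markers of cell types also differed between the groups, in both directions. All 8 markers of a basal, mesenchymal breast line fell and 7 were called lower, and their summed level was 5805 to 6850 CPM in the WT libraries, 544 to 565 in CS16 and 519 to 555 in CS19. Of 7 luminal epithelial markers, 6 were tested, 5 were called lower and 1 higher, with sums of 1755 to 2625, 55.9 to 57.1 and 82.2 to 97.9 CPM. Of 6 embryonic kidney markers, 5 were tested, 3 were called higher and 1 lower, with sums of 52.8 to 70.5 CPM in WT, 121 to 128 in CS16 and 121 to 139 in CS19. *SALL1* among them had 0 counts in WT and 350 to 542 in the clones, and *PAX8* had 202 to 452 in WT and 2 in the clones together. Of the haematopoietic markers 2 of 6 were tested (1 called higher, 1 lower), of the endothelial ones 2 of 5 (both lower) and of the fibroblast ones 5 of 6 (1 higher, 2 lower). Haematopoietic markers summed to at most 6.98 CPM, endothelial ones to at most 14.6 and fibroblast ones to at most 127 CPM, each highest in WT, with *CDH5* and *DCN* at 0 in the WT libraries, *COL1A2* and *CD3E* at 0 in both clones, and *PTPRC* at 0 in CS19. Markers at or near 0 counts in WT, such as *SALL1*, passed the filter on low counts only through the clones, and those such as *PAX8* only through WT. The part of these differences in the annexin levels was not tested.

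Genes that follow a called annexin most closely were sought across the 9 libraries by Pearson correlation of log2(CPM + 1) over 19630 genes, as a description of 3 groups that differ in most genes. *ANXA1* was followed by *ETV1*, *TLR1* and *CTDSPL* (r of 0.998 to 0.999), and *ANXA2* by *ARHGAP18*, *CLIC1* and *CAV1* (r of 0.999 each). *ANXA3* was followed by *MORC4*, *ZNF528* and *ANKRD1*, *ANXA8* by *LAPTM5*, *IGFBP1* and *RAET1L*, and *ANXA10* by *MIR130AHG*, *MIR4280HG* and *TFF3*. A correlation over 0.99 was common, with 145 genes for *ANXA1*, 627 for *ANXA2*, 63 for *ANXA3*, 813 for *ANXA8* and 214 for *ANXA10*.

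The nearest protein-coding genes on the chromosomes went both ways. Of 20 neighbours, 17 were tested, 7 fell and 7 rose, 3 were called lower, 4 were called higher, and their median stood at 0.21 on the log2 scale, where 14.3% of all genes were called lower, 32.6% fell and 31.1% rose. *DDX60*, 28555 bases from *ANXA10*, fell by 5.39 (SE 0.28, edgeR adjusted p = 2.00e-08) and is known as an interferon-induced helicase. *ALDH1A1*, a retinaldehyde dehydrogenase 71423 bases from *ANXA1*, rose by 5.90 on the log2 scale (SE 0.58, edgeR adjusted p = 3.89e-06), with at most 38 counts in any library. The others called higher were *FOXB1* beside *ANXA2* and *QRFPR* and *SMIM43* beside *ANXA5*, at a mean of 0 to 0.0191 CPM in WT and of 8.842, 7.9997 and 1.620 CPM in *SNAI1*-KO. All 4 called higher, *ALDH1A1* included, passed the filter on low counts only through the clone libraries. They could only be found higher, so the counts of neighbours are a description. *FRAS1* and *BMP2K*, the neighbours of *ANXA3*, fell by 0.65 (SE 0.20, edgeR adjusted p = 0.0131) and 0.73 (SE 0.15, edgeR adjusted p = 0.00112). *TNIP1* and *CCDC69*, on the flanks of *ANXA6*, were called lower, with log2 fold changes of -2.59 (SE 0.26, edgeR adjusted p = 4.23e-06) and -3.83 (SE 0.15, edgeR adjusted p = 2.09e-09), while *ANXA6* itself fell by 0.73.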

How the data were processed

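The authors trimmed the paired reads with Trimmomatic 0.36, aligned them with STAR 2.7.2b in 2-pass mode to GRCh38 and counted them with featureCounts (Subread 2.0.0) on gencode v38 genes, requiring both mates and a mapping quality of at least 30, without strand and without chimeric pairs. They deposited whole-number read pair counts per gene and library, not normalized, with total counts of 19527195 to 28627777, and these counts were used as deposited.

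Groups came from the labels. Counts were filtered with filterByExpr, TMM-scaled and tested with edgeR 4.0.16 quasi-likelihood (limma 3.58.1, R 4.3.3), with Benjamini-Hochberg adjustment over all genes tested, and DESeq2 1.42.0 served as an alternative. Each comparison was fitted on its own libraries. SE was the log2 fold change divided by the root of F. CPM and TPM were computed here, and floors were 3 counts per library. On simulated counts for SNAI1-KO against WT, edgeR recovered 200 of 200 genes changed by 3 on the log2 scale, among 19364 tested. For CS16 against WT it recovered 200 of 200 with 1 false call. The simulation gave all genes the same spread and held no library like WT-2, so it checks the code and not the error rate in these data. Named genes were all members, the other annexin loci, members of the lists with up to 4 examples of the smallest adjusted p beside genes named for their role, the 3 genes most correlated with each called member, and neighbours. The members and lists were chosen with earlier results of these data known. Promoters came from RefSeq tables. Some genes of the lists are counted in them but not reported here by name.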

Additional observations from a re-analysis of the deposited data

Results flagged for a closer look

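The annexins below differed between CS16 and CS19, 2 clones under the same contrast with WT, by a test of the difference itself (edgeR's quasi-likelihood test on the 3 libraries of each clone, adjusted over all genes). *ANXA3* had a log2 fold change of -1.26, lower in CS16 (adjusted p = 3.38e-06, edgeR). *ANXA6* had one of 0.79 (adjusted p = 2.19e-06, edgeR) and *ANXA1* one of 0.78 (adjusted p = 0.000234, edgeR), both higher in CS16. The difference of *ANXA1* did not pass in a fit that also took its spread from WT (adjusted p = 0.221, edgeR). *ANXA2* had one of 0.20 (adjusted p = 0.0374, edgeR), and its difference was lost in several alternatives. For each of these 4 genes the 3 CS16 libraries did not overlap the 3 CS19 libraries in CPM. The genes were picked by the test on these same libraries, so the lack of overlap adds no support. Its share over all genes was not counted.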

How the results depend on the processing

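The 5 annexins called lower in each comparison with WT, and the 0 called between the clones, stayed at those counts in all 63 refits. Without a filter on low counts, genes called rose from 5272 to 8662 in SNAI1-KO against WT, from 4990 to 7513 in CS19 against WT and from 198 to 352 in CS16 against CS19. Leaving out 1 library gave 5165 to 5963, 5176 to 5823 (CS16 against WT), 5167 to 5743 and 224 to 258 genes. *ANXA7* turned with the WT libraries: without WT-2 it stood at -0.62 (SNAI1-KO), -0.74 (CS16) and -0.48 (CS19), and without WT-3 at 0.080 and, in CS19, 0.22. *ANXA2* made up 23.4%, 6.01% and 5.70% of the summed annexin level in WT, CS16 and CS19 by exon length, 46.4%, 16.3% and 16.03% by CPM, and 50.8%, 21.5% and 20.9% by canonical length, which depends on the length alone. Between the clones, the shared fit with WT left 2 annexins past the adjusted p, and *ANXA2* was also lost under upper-quartile scaling (adjusted p = 0.0589), without a filter (0.0560) and without 4 of the 6 clone libraries in turn (0.0645 to 0.158), by edgeR. *ANXA7* passed there under upper-quartile scaling, without a filter and without CS16-2 (adjusted p = 0.0483, 0.0172 and 0.000412 by edgeR). *ANXA6* in CS16 passed in the shared fit (-0.38, edgeR adjusted p = 0.0252). The cause was not tested. The refits gave 663 annexin values, which were log2 fold changes and counts of annexins past the adjusted p. Of these, 634 were labelled the same. A fold change had to keep direction and side of the threshold. A count was labelled the same also after a small shift, such as from 9 to 8 or 10 in SNAI1-KO against WT.

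Replicate numbers did not pair the libraries (same-number correlations of -0.21 to 0.19). With the replicate block, genes called were 5220, 4943, 4921 and 201, and the block changed 1 annexin, *ANXA2* between the clones (0.21, edgeR adjusted p = 0.125).

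Counts of 0 to 3 in the clones limit *ANXA8* and *ANXA10* to bounds and wide ratios. Clone and genotype could not be told apart.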
